A study of Mus musculus with 8 samples.

Results

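Id2 is 1 of the 12 genes measured by quantitative RT-PCR in lineage-negative mouse bone marrow, a panel of 11 target genes and the reference gene Gapdh. It was chosen by name, as the rows called Id2 in the authors' table of raw threshold cycles, and these are 27 of 324 wells, 3 wells in each of 9 preparations. The preparations were 3 from mice without Gfi1 that carry 1 intact copy of Id2 (Gfi1-/-;Id2+/-, called compound mutants here), 3 from mice without Gfi1 (Gfi1-/-) and 3 from wild-type controls, which the authors' sheet names Gfi1+/+ and whose Id2 genotype it does not state. All mutant preparations lack Gfi1, so the Id2 copy was removed only on that background. The labels describe the mutant mice as untreated and backcrossed to C57/Bl6, and give no age. The cells were those left after depletion of cells positive for CD11b, Gr1, B220, CD8, CD4, Ter119 or IL-7R. Nothing states whether preparations are separate mice, so p-values measure only the spread between preparations. The deposited arrays of whole bone marrow were not used here, because their probe sets carry no gene names.

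Id2 belongs to the inhibitor of DNA binding family. These helix-loop-helix proteins have no DNA-binding region of their own; they pair with E proteins and keep them from binding DNA. Because E proteins direct the choice of blood lineages, Id2 is known for its part in the development of innate lymphoid cells, dendritic cells and myeloid and erythroid progenitors. Gfi1 is a zinc-finger repressor of transcription that is needed for neutrophil and lymphoid development, and Id2 has been described as a gene that it represses. The 3 genotypes ask what happens to Id2 transcript when Gfi1 is lost, and where it stands when 1 Id2 copy is then removed.

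The Id2 gene lies on the minus strand of mouse chromosome 12, from 25093799 to 25096092 in GRCm38.p6. The 250 bases before its start, chr12:25096093-25096342, are shown because Gfi1 acts by binding DNA. Capitals mark the only match, on either strand, to AATC, the core of the sequence that Gfi1 recognises, here read as its reverse complement GATT and beginning 53 bases before the start.
Id2 promoter, RefSeq, GRCm38.p6, minus strand, 5′ to 3′: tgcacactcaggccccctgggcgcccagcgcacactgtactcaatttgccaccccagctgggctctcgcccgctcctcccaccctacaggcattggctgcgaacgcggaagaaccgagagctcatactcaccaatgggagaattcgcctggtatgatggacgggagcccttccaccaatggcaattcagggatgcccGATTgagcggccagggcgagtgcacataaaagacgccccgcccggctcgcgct
AATC or GATT was present in 69.0% of 32851 RefSeq promoter windows of the same length. The match is therefore a description of these letters and says nothing of binding.

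A threshold cycle (Ct) is the PCR cycle at which a well passes the detection level, so a lower Ct means more transcript. The level of Id2 in a preparation is its mean Gapdh Ct less its mean Id2 Ct, on a log2 scale where 1 unit is 1 cycle, taking every cycle as a doubling; no file gives the efficiency of the assays. All 27 Id2 wells passed the detection level within the 45 cycles. Wells of the same preparation had a pooled SD of 0.252 cycles for Id2 and 0.126 cycles for Gapdh. The single undetermined well of the panel was a Gapdh well of wild-type preparation 1, whose Gapdh value rests on the other wells, at 17.5 and 17.2 cycles. In bulk preparations, fewer cells that contain Id2 transcript and less transcript per cell cannot be told apart.

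Which wells are Id2 depends on the table. The authors' raw table and their normalized table, both deposited for the same wells, attach the gene names differently. Of 90 values of the normalized table, 1 lay within 0.1 of the raw value of the gene of the same name minus Gapdh, and 90 of 90 did once the names were reordered. The wells called Id2 in the raw table stand under the name Gata1 in the normalized table, in 9 of 9 preparations, and those under the name Id2 there are called Cdk1 in the raw table. The reordering paired the assay numbers sorted by value with the same numbers sorted as text. The files do not say which naming is right. The wells called Gapdh in the raw table had the lowest mean Ct of the panel, 15.82, 15.87 and 17.42 in compound mutants, Gfi1-/- and wild type. Under the other naming these wells are Tfrc, and Gapdh is the wells called Hbb-b1, at 20.44, 20.26 and 20.51. The values below use the names of the raw table, which the authors' sheet gives as the source, and the other naming is reported at the end.

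Relative to Gapdh, mean Id2 was lowest in compound mutants, highest in Gfi1-/- preparations and between these in wild type, and the wells behind this are given first. In compound mutants the Id2 wells of preparation 1 had Ct of 26.5, 25.7 and 26.4, those of preparation 2 had 24.5, 24.6 and 24.3, and those of preparation 3 had 24.6, 24.6 and 24.7. In Gfi1-/- preparations they were 23.1, 23.2 and 23.2 in preparation 1, 25.2, 24.9 and 25.3 in preparation 2, and 22.6, 22.4 and 22.3 in preparation 3. In wild type they were 25.6, 26.0 and 25.5 in preparation 1, 25.4, 24.8 and 24.7 in preparation 2, and 27.6, 28.0 and 27.5 in preparation 3. Before any reference is taken off, the genotypes overlap, and Gfi1-/- preparation 2 lies with the other genotypes rather than with the other Gfi1-/- preparations.

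Gapdh, a glycolytic enzyme used as the reference, had a mean Ct of 15.82 ± 1.03 in compound mutants, 15.87 ± 0.81 in Gfi1-/- preparations and 17.42 ± 1.35 in wild type (SD, n = 3 each). Gapdh thus came up 1.59 cycles earlier in compound mutants and 1.55 cycles earlier in Gfi1-/- preparations than in wild type, with SE of 0.98 and 0.909 (exact two-sided permutation p = 0.2 for each). Between the mutant genotypes it differed by 0.044 cycles. How much of this shift is input RNA and how much is Gapdh transcript was not tested, and it enters every level set against wild type.

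**Figure D1:**
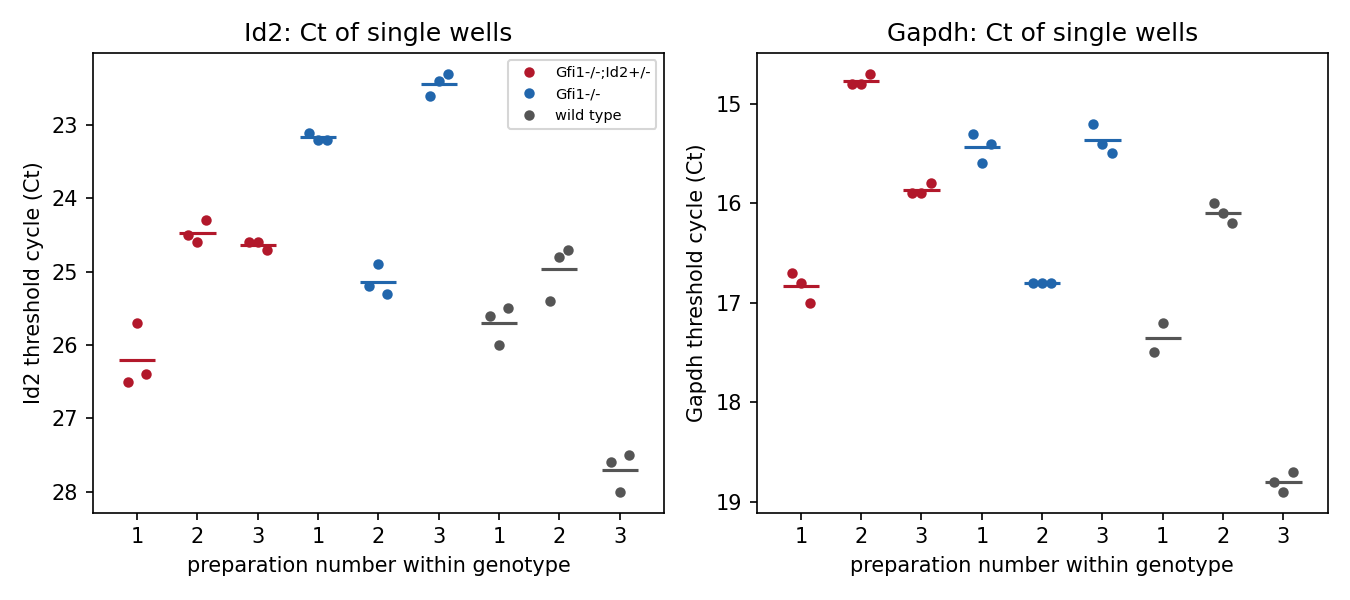
Threshold cycles of single wells of Id2 and of Gapdh in the 9 preparations, with genotypes from left to right as compound mutants, Gfi1-/- and wild type. The axis runs downward so that more transcript lies higher, and lines mark the mean of a preparation's wells. Gapdh lies between 14.77 and 16.83 cycles in compound mutants, 15.37 and 16.80 in Gfi1-/- and 16.10 and 18.80 in wild type.

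Relative to Gapdh, the Id2 level was -9.37, -9.70 and -8.77 in the compound mutants, -7.73, -8.33 and -7.07 in the Gfi1-/- preparations and -8.35, -8.87 and -8.90 in wild type. The means were -9.28 ± 0.47 in compound mutants, -7.71 ± 0.63 in Gfi1-/- preparations and -8.71 ± 0.31 in wild type (SD, n = 3 each). Every Gfi1-/- preparation lies above every compound mutant, while compound mutant 3 lies above 2 wild-type preparations. As ratios to the wild-type mean, these levels are 0.632, 0.502 and 0.959 in compound mutants, 1.96, 1.29 and 3.11 in Gfi1-/- preparations and 1.28, 0.894 and 0.874 in wild type. The spread was widest among the Gfi1-/- preparations. The error of a level from its wells, 0.047 to 0.267 as an SE, is smaller than the SD between preparations of any genotype.

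**Figure D2:**
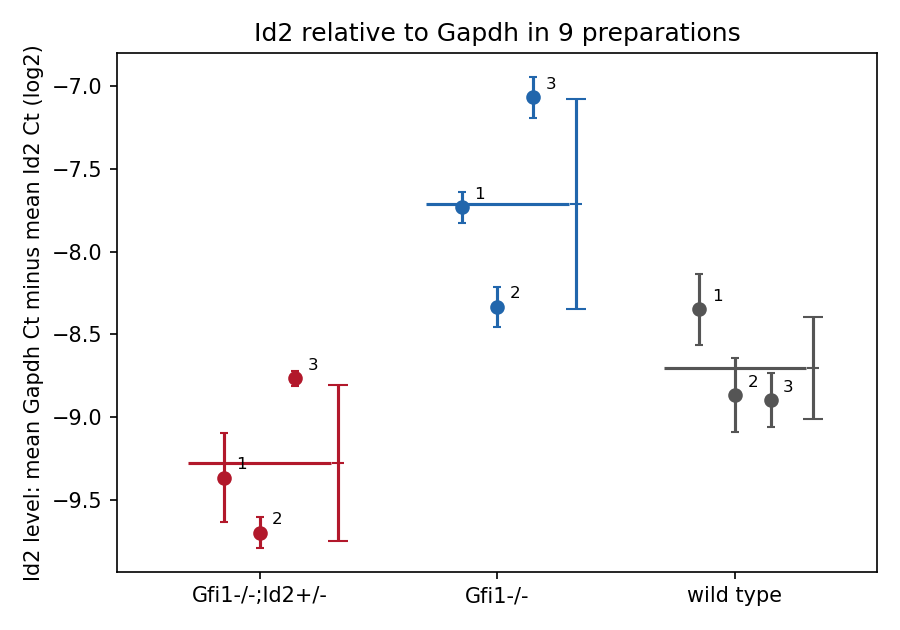
Id2 level relative to Gapdh (log2 units, mean Gapdh Ct minus mean Id2 Ct) in each numbered preparation, with compound mutants at the left, Gfi1-/- in the middle and wild type at the right. Bars on points are SE from the wells, lines are genotype means and side bars are SD (n = 3). Gfi1-/- preparation 2, at -8.33, and wild-type preparation 1, at -8.35, are nearly level.

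Without Gfi1, Id2 was higher than in wild type by 0.99 on the log2 scale (SE 0.41), a ratio of 1.99, with means of -7.71 in Gfi1-/- preparations and -8.71 in wild type. The difference was positive in 9 of 9 pairs of preparations and ran from 0.02 to 1.83. The exact two-sided permutation p was 0.1, the smallest that 3 against 3 allows, and 0.413 after Benjamini-Hochberg adjustment over 33 gene comparisons. With limma, which draws each gene's own spread toward that of the panel, the 95% interval of the difference was 0.15 to 1.84. The limma p adjusted over the 11 genes of this comparison, 0.176, missed the threshold of 0.05. The lack of overlap rests on a gap of 0.017 between Gfi1-/- preparation 2 and wild-type preparation 1, less than the SE from wells of either, 0.12 and 0.21. With medians of wells in place of means these genotypes overlap, and the difference is 0.85. Gfi1-/- preparation 3 carries much of the size: without it the difference is 0.67. Without Gfi1-/- preparation 2 it is 1.31, and the adjusted limma p is then 0.0041. Epor and Klf1 also pass in that setting, 3 of 11 genes in all, with adjusted p of 0.0206 and 0.0217.

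Removal of 1 Id2 copy in the absence of Gfi1 gave the widest separation. Id2 was 1.57 log2 units lower in compound mutants than in Gfi1-/- preparations (difference -1.57, SE 0.46), a ratio of 0.338. It was lower in 9 of 9 pairs, with pair differences of -2.63 to -0.43, and the nearest preparations of the genotypes were 0.433 apart. The exact two-sided permutation p was again 0.1, the smallest possible, and 0.413 adjusted. The limma adjustment runs over the 11 genes of this comparison only, not over the 33 gene comparisons used for the permutation test. Whether a limma call would hold over all 33 was not tested. In the limma fit across the panel Id2 fell, with an unadjusted p of 0.0018, an adjusted p of 0.0197 and a 95% interval of -2.41 to -0.72. The interval holds -1, the value that a halving of the level would give. The limma call was lost without compound mutant 1, compound mutant 2 or Gfi1-/- preparation 3, with adjusted p of 0.107, 0.0953 and 0.0915, and the direction held without any single preparation, at -1.88 to -1.24.

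Against wild type, compound mutants averaged 0.57 log2 units lower in Id2 (difference -0.57, SE 0.33), a ratio of 0.673, with means of -9.28 in compound mutants and -8.71 in wild type. Of 9 pairs, 2 ran the other way, both with compound mutant 3, and pair differences reached from -1.35 to 0.13. The exact two-sided permutation p was 0.3, adjusted 0.55, and limma gave an adjusted p of 0.522 with a 95% interval of -1.42 to 0.27. The interval includes no difference as well as a fall larger than a halving, so these preparations do not tell whether Id2 lies below, at or above the wild-type level. The direction itself turned with no reference, with Hbb-b1 as the reference and with the other gene names, to between 0.88 and 1.02. In the order of the means, compound mutants and wild type are neighbours that do not differ beyond their spread, and wild type and Gfi1-/- are neighbours whose nearest preparations are level within the error of their wells.

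Across the 3 genotypes together, an exact permutation test of the F statistic over all assignments of the 9 preparations gave F = 7.85 and p = 0.0179, where 0.0036 is the smallest value it can give. Adjusted over the 11 target genes, p was 0.118. Of these genes 18.2%, Id2 and Gfi1b, had an unadjusted p under 0.05 (Gfi1b p = 0.0214 by the same exact test), and 0% had an adjusted one. Without compound mutant 1 the p for Id2 was 0.0571, and without compound mutant 2 it was 0.0714.

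Set among the panel, Id2 had the highest difference of the 11 target genes between Gfi1-/- and wild type and the lowest between compound mutants and Gfi1-/-. These comparisons share the Gfi1-/- preparations, so a high or low value there moves both. The median difference of the 11 genes was 0.21 for Gfi1-/- minus wild type, with 8 genes higher, and -0.41 for compound mutants minus Gfi1-/-, with 1 gene higher. For compound mutants minus wild type the median was -0.27, with 2 genes higher, and Id2 was the ninth of 11. The fall of Id2 in compound mutants relative to Gfi1-/- preparations is thus set against a panel that was itself lower.

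In the limma fit 0% of the 11 genes passed the adjusted threshold for Gfi1-/- minus wild type, with 2 genes at an unadjusted p under 0.05. For compound mutants minus Gfi1-/- 9.09% passed, and that gene was Id2. This share depends on single preparations: without Gfi1-/- preparation 2, 5 of 11 genes passed (Epor, Gata1, Gfi1b, Id2 and Klf1, each lower in compound mutants), and without compound mutant 1, compound mutant 2 or Gfi1-/- preparation 3 the count was 0. For compound mutants minus wild type 0% passed, with 1 gene at an unadjusted p under 0.05. By the exact permutation test no gene of any comparison can pass. Lack of overlap was commoner: 36.4% of genes for Gfi1-/- minus wild type (Ccne1, Cdk1, Gfi1 and Id2, some of them named after their values were seen), 18.2% for compound mutants minus Gfi1-/- (Id2 and Gfi1b) and 18.2% for compound mutants minus wild type, where Id2 overlapped. Separation of Gfi1-/- from wild type was therefore shared by other genes of the panel.

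**Figure D3:**
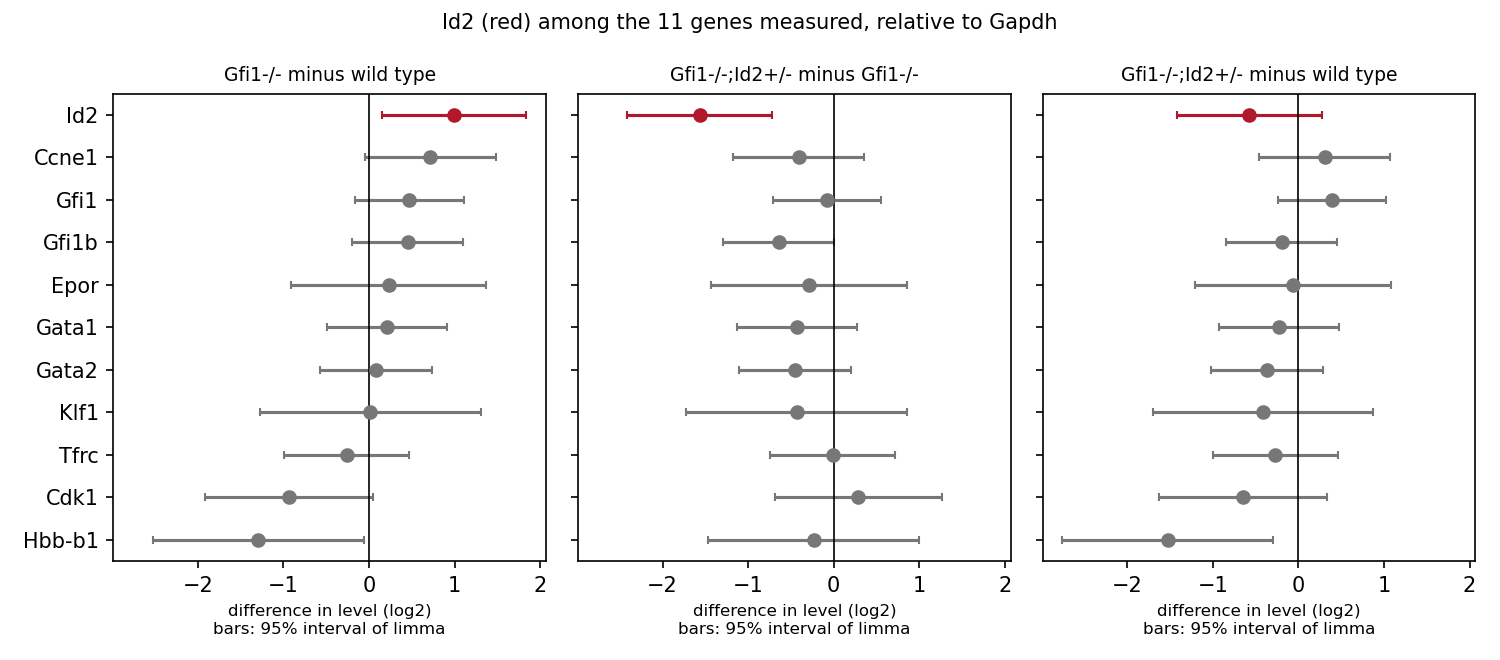
Differences in level (log2 units) of the 11 target genes in 3 comparisons, each labelled with its direction, with limma 95% intervals and Id2 in red. Id2 lies at 0.99 for Gfi1-/- minus wild type, at -1.57 for compound mutants minus Gfi1-/-, where its interval ends at -0.72, and at -0.57 for compound mutants minus wild type.

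Gfi1, the gene deleted in both mutant genotypes, gave a signal in every preparation. Its level relative to Gapdh was -7.47, -7.13 and -6.70 in compound mutants, -7.07, -7.10 and -6.90 in Gfi1-/- preparations and -7.35, -7.47 and -7.67 in wild type. It was not lower in either mutant: Gfi1-/- minus wild type was 0.47 (SE 0.11, exact permutation p = 0.1, limma adjusted p = 0.283), and compound mutants minus wild type was 0.39 (SE 0.24, exact permutation p = 0.3). Nothing states whether the assay lies in the deleted part of the gene, so these wells do not check the deletion. With the names of the normalized table, Gfi1 was also not lower, at 1.31 for Gfi1-/- minus wild type and 1.11 for compound mutants minus wild type. The genotypes therefore rest on the names of the preparations.

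By the root mean square difference of levels over the 9 preparations, after each gene's mean was taken off, the genes most like Id2 were Gfi1b at 0.483, Gata1 at 0.556 and Gata2 at 0.684 log2 units. The Gapdh wells of a preparation enter the levels of both genes alike and drop out of this difference. Gfi1b, a relative of Gfi1 that represses transcription in erythroid cells and megakaryocytes, averaged -7.11 ± 0.20 in compound mutants, -6.47 ± 0.40 in Gfi1-/- preparations and -6.92 ± 0.11 in wild type (SD, n = 3 each). It has the same order of genotypes as Id2 with a narrower span, but it was picked for its likeness to Id2 in these preparations. That order of means is shared by Gata1, Gata2, Epor and Klf1, and not by Ccne1, Cdk1, Gfi1, Hbb-b1 and Tfrc. The Gfi1b difference was -0.64 (SE 0.26) between compound mutants and Gfi1-/- and 0.45 (SE 0.24) between Gfi1-/- and wild type. Gata1, the main transcription factor of erythroid cells, differed by -0.43 and 0.21 in these comparisons, and Gata2, which keeps stem cells and early progenitors going, by -0.46 and 0.08.

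Markers of erythroid cells and of progenitors gave a signal in every preparation. Of the fixed markers the panel holds 6 for erythroid cells (Gata1, Klf1, Epor, Tfrc, Hbb-b1 and Gfi1b) and Gata2 for progenitors, and none was at the detection limit. The only marker listed for granulocytic cells in the panel is Gfi1. As the gene deleted in both mutant genotypes, it is not read as a marker here. The mean level of the 6 erythroid markers ran from -6.14 to -5.89 in compound mutants, from -6.62 to -5.16 in Gfi1-/- preparations and from -5.76 to -5.29 in wild type. The lowest of all 9 was Gfi1-/- preparation 2, which is also the Gfi1-/- preparation with the lowest Id2 relative to Gapdh, a reference that both measures share. With no reference Id2 was again lowest there, at -25.13. Against the other target genes and against Hbb-b1 it was lowest in Gfi1-/- preparation 1, at -2.51 and -4.17. Compound mutants lie below wild type in this measure without overlap, and Gfi1-/- preparations span both. The separation rests on Hbb-b1: the mean of the other 5 markers, taken after these values were seen, ran from -6.54 to -6.09 in compound mutants, from -6.87 to -5.34 in Gfi1-/- preparations and from -6.19 to -5.84 in wild type, where all genotypes overlap. The part of this in the Id2 differences was not tested.

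Other references were set in place of Gapdh. Against the mean of the other 10 target genes, the Id2 level was -3.43, -3.87 and -3.17 in compound mutants, -2.51, -2.18 and -1.88 in Gfi1-/- preparations and -3.07, -3.29 and -3.29 in wild type. Gfi1-/- preparations again lay above both other genotypes, by 1.03 over wild type (SE 0.19, exact permutation p = 0.1), and compound mutants differed from Gfi1-/- by -1.30 (SE 0.27, exact permutation p = 0.1). With the mean of all target genes, Id2 included, as reference, Id2 passed the limma threshold in both comparisons. The adjusted p was 0.0296 for Gfi1-/- minus wild type and 0.0059 for compound mutants minus Gfi1-/-. In that setting 3 of 11 genes passed for Gfi1-/- minus wild type, with Id2 higher and Cdk1 and Hbb-b1 lower. For compound mutants minus Gfi1-/- Id2 alone passed. Every target gene is part of that reference, so a change in 1 gene shifts the differences of the others. The Id2 difference for Gfi1-/- minus wild type was 0.93 with that reference and 0.99 relative to Gapdh. For compound mutants minus Gfi1-/- it was -1.18 with that reference and -1.57 relative to Gapdh. Why the Id2 calls differ between these references was not tested. Compound mutants minus wild type was -0.27 against the other genes (exact permutation p = 0.3).

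The position of compound mutants relative to wild type changes sign with the reference. Against Hbb-b1, the beta-globin gene, whose level relative to Gapdh was 1.53 log2 units lower in compound mutants than in wild type (difference -1.53), Id2 was 0.96 higher in compound mutants (exact permutation p = 0.2). With no reference it was 1.02 higher (exact permutation p = 0.5), beside a Gapdh difference of 1.59. Gfi1-/- minus wild type stayed positive, at 2.29 against Hbb-b1 (exact permutation p = 0.1) and 2.54 with no reference (exact permutation p = 0.2), where all 11 target genes were higher by a median of 1.76. Compound mutants minus Gfi1-/- stayed negative, at -1.33 and -1.52 (exact permutation p = 0.2 and 0.3).

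**Figure D4:**
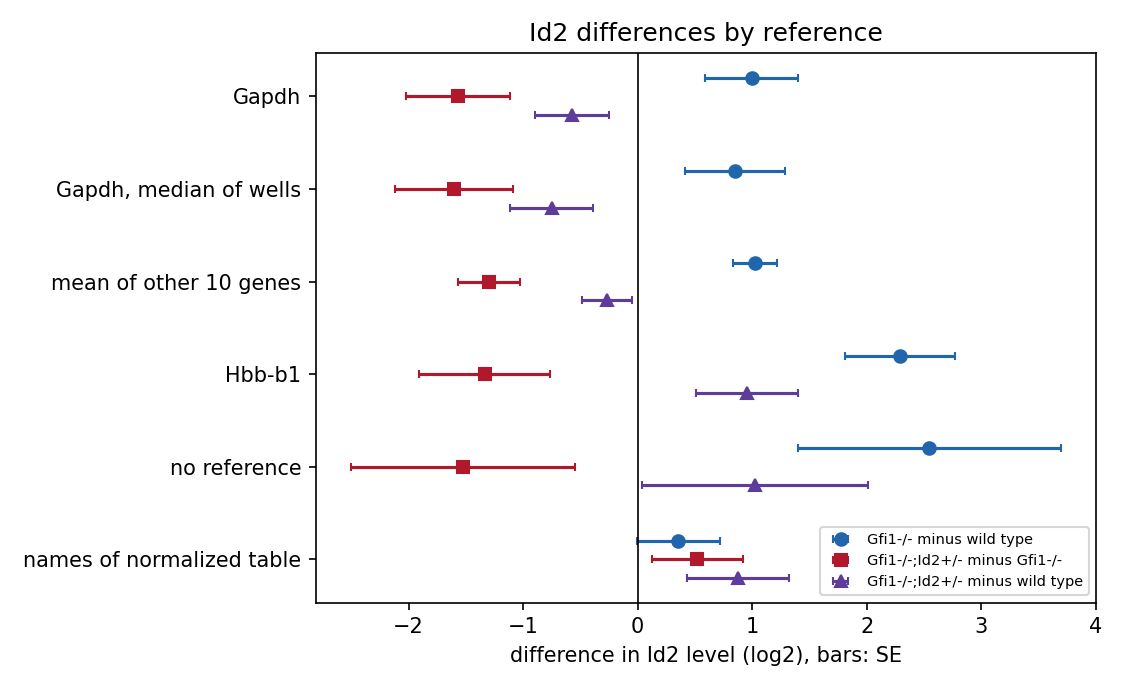
Differences in Id2 level (log2 units, with SE, n = 3 preparations a genotype) under 6 ways of forming the level, for the same 3 comparisons. Under the names of the raw table Gfi1-/- minus wild type stays above 0 and compound mutants minus Gfi1-/- below 0, while compound mutants minus wild type lies on both sides of 0. Under the names of the normalized table compound mutants minus Gfi1-/- is 0.52.

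With the names of the normalized table, both Id2 and Gapdh are other wells, and none of the 3 comparisons separates the genotypes. The Id2 level is then -0.47, 0.17 and -1.0 in compound mutants, -1.23, -1.10 and -0.53 in Gfi1-/- preparations and -1.77, -0.77 and -1.40 in wild type. Gfi1-/- minus wild type is 0.36 (SE 0.36, exact permutation p = 0.4). Compound mutants minus Gfi1-/- is 0.52 (SE 0.40, exact permutation p = 0.2), the opposite sign to that above, and compound mutants minus wild type is 0.88 (SE 0.45, exact permutation p = 0.2). In the authors' deposited table, where the sign is turned so that a lower value is more transcript, the column named Id2 has 0.5, -0.2 and 1.0 in compound mutants, 1.3, 1.1 and 0.5 in Gfi1-/- preparations and 1.8, 0.8 and 1.4 in wild type. The column named Gata1 in the authors' deposited table, which holds the wells called Id2 in the raw table set against those called Hbb-b1 there, has 5.2, 3.9 and 4.8 in compound mutants, 4.2, 3.0 and 2.8 in Gfi1-/- preparations and 5.8, 5.2 and 5.9 in wild type. Id2 is highest in Gfi1-/- preparations only under the raw names; under the other names it is highest in compound mutants, within the spread between preparations.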

How the data were processed

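The authors made RNA with RNeasy and DNase I, reverse-transcribed 500 ng and ran TaqMan assays for 45 cycles, per the deposited sheet. Their raw table holds Ct, a score per well, as deposited, with no normalization. They also deposited a normalized table of log2 differences to average Gapdh and a table of fold ratios whose control is not stated. Levels were computed here from the raw wells. Genotype and number in their names placed the 6 mutant preparations. The 3 wild-type preparations match no labelled sample and were grouped by the sheet's own words.

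Pairs of genotypes were compared by exact two-sided permutation over preparations, adjusted over 33 gene comparisons. The panel was compared with limma 3.58.1 in R 4.3.3 (11 genes, 9 preparations, Benjamini-Hochberg adjusted p under 0.05 over the genes of each comparison) (scripts in Python 3.11.15, numpy 2.4.6, pandas 2.3.3 and matplotlib 3.10.9). The limma step was checked on simulated data with independent noise and a shift larger than any difference in Id2 between genotypes here. That check shows that the step runs and does not bear on the calls for Id2. Named genes were Id2, Gfi1, Gapdh and the 3 genes most like Id2. Id2 and the lists were chosen with earlier results of these data known. Preparation numbers were checked as pairs: deviations over 11 genes correlated between the same numbers at 0.63, 0.54 and 0.21 for Gfi1-/- with wild type and 0.29, 0.60 and 0.17 for compound mutants with wild type, all above 0.1, but at 0.57, 0.11 and -0.51 for compound mutants with Gfi1-/-. The labels say nothing of what a number shares. A preparation's Gapdh value shifts all its genes alike and drops out of these correlations. Alternatives were the reference, the well summary, the linear scale, the replicate block and leaving out each preparation. The naming of the normalized table and limma with the replicate block were added after seeing the data. RT-PCR files give no counts, so precision is limited by 3 preparations a genotype.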

Additional observations from a re-analysis of the deposited data

How the results depend on the processing

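Gfi1-/- minus wild type kept its sign under 6 of 6 settings that change the values and without any single preparation, where it ran from 0.67 to 1.31. Compound mutants minus Gfi1-/- kept its sign under 5 of 6 and ran from -1.88 to -1.24 without single preparations. It was -1.57 and past the threshold by limma (p adjusted over the 11 genes of that comparison = 0.0197), which draws each gene's own spread toward that of the panel. It turned to 0.52 with the names of the normalized table. Compound mutants minus wild type kept its sign under 3 of 6, ran from -0.83 to -0.36 without single preparations, and turned to 1.02 with no reference, 0.96 against Hbb-b1 and 0.88 with the names of the normalized table. The cause was not tested. The p of the exact permutation test over 3 genotypes was 0.136 with no reference, 0.179 with the names of the normalized table and 0.0107 to 0.0714 without single preparations. The count of genes past the limma threshold for Gfi1-/- minus wild type was 3 (Cdk1, Hbb-b1 and Id2) with the mean of all target genes as reference and 0 to 3 without single preparations, with 3 (Epor, Id2 and Klf1) without Gfi1-/- preparation 2. For compound mutants minus Gfi1-/- it was 0 to 5, with 5 (Epor, Gata1, Gfi1b, Id2 and Klf1) without Gfi1-/- preparation 2 and 0 without compound mutant 1, compound mutant 2 or Gfi1-/- preparation 3. For compound mutants minus wild type it was 0 to 1, with Hbb-b1 passing without Gfi1-/- preparation 2. With the preparation number as a replicate block, compound mutants minus Gfi1-/- was -1.63, -1.37 and -1.70 in the 3 pairs. The mean was -1.57 (SE 0.10, exact test by sign flips of the 3 differences, p = 0.25, the smallest possible). The limma adjusted p with the replicate block was 0.0038, though these numbers are not shown to pair. The block changed no other call for Id2. Id2 on the arrays was not run, because no table given here pairs probe sets with genes.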
